A study of Xenopus tropicalis with 9 samples.

Results

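A set of 28 genes, of 10336 measured, lay below a set threshold in all 3 libraries of young cartilage of the frog humerus. The genes reached it at low level in 2 of 3 libraries of mature cartilage and were higher still in bone of the lower jaw. Of the 28, 13 did so when the threshold was an equal share of each library's own total. Libraries came from cells cut out of tissue sections with a laser, from untreated wild-type Xenopus tropicalis (western clawed frog) at stage NF 57, 22 to 24 days post fertilisation at 27 to 28 °C. Each of 3 groups held 3 libraries: immature and mature chondrocytes, both from the humerus, and osteoblasts from the medial angulosplenial, a lower jaw bone. Cell type and skeletal site differ together between cartilage and bone, so their parts cannot be told apart. No label ties a library to an animal, so spreads are between libraries and may be technical.

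Chondrocytes make cartilage, and osteoblasts lay down the collagen-rich matrix that mineralises into bone. In limb cartilage, chondrocytes that mature enlarge and alter their matrix, and in mammals late hypertrophic chondrocytes are known to switch on some genes also used by osteoblasts. The comparison of immature cartilage, mature cartilage and bone, all at the same stage, asks which transcripts of bone are found in cartilage labelled immature or mature.

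The genes were selected on measured values. Deposited values are normalized counts, that is, read counts scaled per library and rounded by the authors. Detection was set at a value of 9.52, or 1 ppm (1 in 1000000) of the mean library total. A member lay below this threshold in all 3 immature libraries and at or above it in mature replicates 2 and 3 and in all 3 osteoblast libraries. Its lowest osteoblast value was also at least as high as its higher value in mature replicates 2 and 3. Mature replicate 1 took no part in the choice. The order of immature, mature and osteoblast levels is therefore a description of how the genes were chosen. Fits on these libraries are no independent test of that order. Their log2 differences and SEs for single genes, and the counts of members called given last, are descriptions.

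The table gives Ensembl gene identifiers alone, and 0 of the 10336 had a symbol in the reference table used, which lists RefSeq genes of assembly UCB_Xtro_10.0. The functions of the 28 genes are not given here, and the labelled cell types were not checked against marker genes. Whether the members include known bone matrix or mineralisation genes was not analysed here. "Bone genes" below means genes detected in the osteoblast libraries and not in immature cartilage.

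Mature replicate 1 stood apart from its group. Across the genes tested, its log2 values correlated at 0.95 to 0.99 with the immature libraries and at 0.82 and 0.85 with mature replicates 2 and 3. The immature libraries correlated at 0.95 to 0.97 with each other. Mature replicates 2 and 3 correlated at 0.90 with each other and at 0.82 to 0.86 with the immature libraries. Whether the label and captured area of mature replicate 1 match those of the other 2 cannot be settled from the files. Any value over all 3 mature libraries may therefore mix unlike samples. Column totals were 7594328 to 14055110, the 2 highest being mature replicate 3 and mature replicate 2. From how often each low value occurred, 1 read was estimated to be worth 1.59 in both of those libraries. The estimate was 0.733 to 0.939 in the immature libraries and mature replicate 1. Where 1 read is worth under 1, no whole number is skipped, so these estimates do not rest on gaps between values. By these estimates the threshold stood for about 6 reads in mature replicates 2 and 3, against 10 to 13 in the other cartilage libraries. A value at the threshold in mature replicates 2 and 3 could thus hold fewer reads than a value below it in an immature library.

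The criteria narrowed the table. In all, 1788 genes were below the threshold in every immature library, and 420 of these reached it in every osteoblast library. Of the 420, 65 also reached it in both mature replicates 2 and 3, 97 in just 1 of them and 258 in neither. The requirement that every osteoblast value be at least as high as both mature values kept 28 of the 65. For 24 of the 37 left out by it, the osteoblast mean was still above the mean of mature replicates 2 and 3.

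The 65 genes were 15.5% of the 420 bone genes. Of all 1788 genes below the threshold in every immature library, 238 (13.3%) were detected in both mature libraries of the rule. Most of these, 173, were among the 1368 genes that did not reach the threshold in every osteoblast library (12.6%). Among the 420, detection in both mature libraries was found for 19 of 157 genes with an osteoblast mean under 100 (12.1%). It was found for 29 of 185 from 100 to under 500 (15.7%) and for 17 of 78 at 500 or more (21.8%). The share was higher at higher bone levels, and the lowest, 12.1%, was near the 12.6% of the 1368 other genes. These shares are descriptions, and their differences were not tested.

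The 28 genes made up a small part of every immature library, more of mature replicates 2 and 3, and most of all of bone. Their summed value was 67, 86 and 94 in immature replicates 1 to 3. It was 72 in mature replicate 1, 1584 in mature replicate 2 and 1548 in mature replicate 3. In osteoblast replicates 1 to 3 it was 15663, 20912 and 25208. As a share of each library's own total, this was 7.56 to 11.4 ppm in the immature libraries, 9.48 ppm in mature replicate 1, 139 and 110 ppm in mature replicates 2 and 3, and 1986 to 2366 ppm in the osteoblast libraries. Mature replicate 1 lay inside the immature range, and mature replicates 2 and 3 lay between it and bone. In captured tissue, fewer cells that make a transcript and less of it per cell cannot be told apart.

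**Figure D1:**
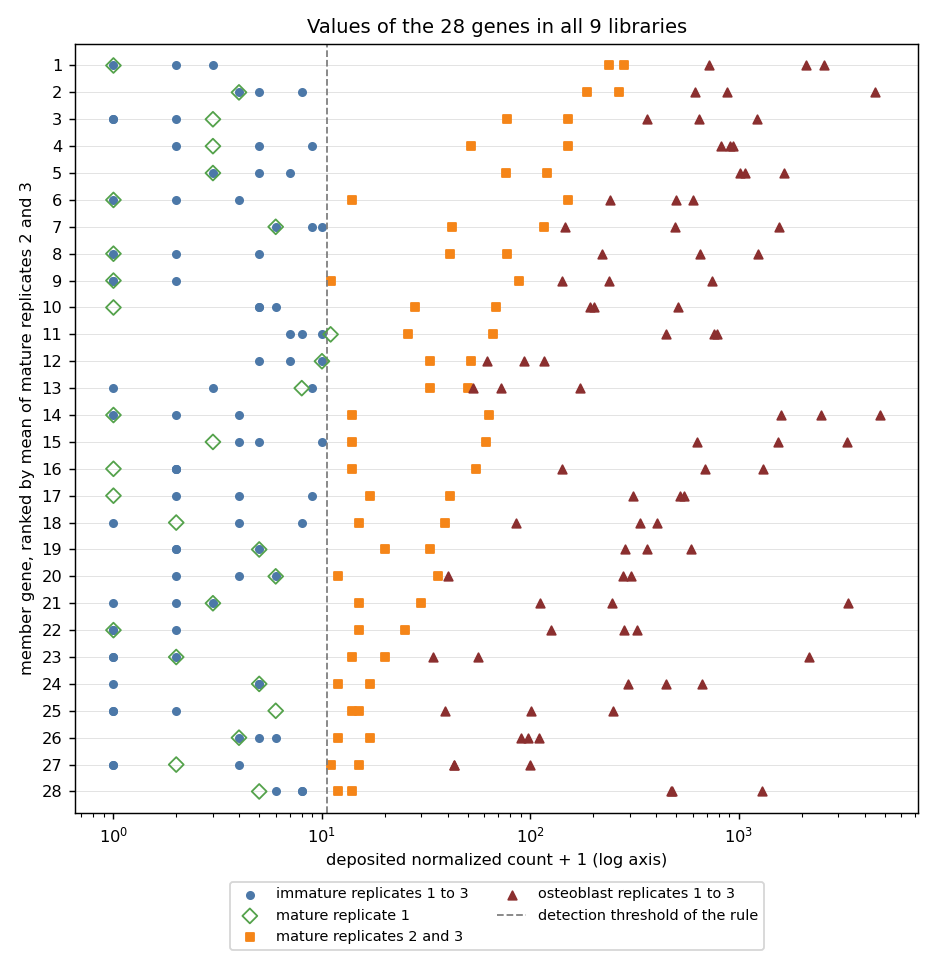
Deposited normalized counts plus 1 (log axis) of the 28 genes in all 9 libraries, 1 row per gene, ordered by the mean of mature replicates 2 and 3. Circles are immature, open diamonds mature replicate 1, squares mature replicates 2 and 3, triangles osteoblast libraries, and the dashed line is the threshold of 9.52. The diamonds lie among the circles, and 1 of 28 is at or above the threshold.

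The 2 genes with the highest level in mature cartilage are described first. ENSXETG00000034076 had normalized counts of 2, 1 and 0 in immature replicates 1 to 3, 0, 281 and 237 in mature replicates 1 to 3, and 721, 2099 and 2569 in osteoblast replicates 1 to 3. It was near 0 in 4 of the 6 cartilage libraries, and its deposited values in mature replicates 2 and 3 were close to each other. As shares of each library's own total they were further apart, at 24.6 and 16.9 ppm. The 2 values corresponded to an estimated 176 and 149 reads. Exact 95% Poisson intervals were 151 to 204 and 126 to 175 reads and cover counting error only. The fitted log2 difference of all mature libraries from immature was 3.07 (SE 1.07), and 4.67 (SE 0.66) without mature replicate 1. The gene was chosen by its values in these libraries, so both differences and their SEs are descriptions.

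ENSXETG00000021081 had normalized counts of 3, 4 and 7 in immature replicates 1 to 3, 3, 185 and 265 in mature replicates 1 to 3, and 874, 4494 and 613 in osteoblast replicates 1 to 3. Its osteoblast values spread 7.33-fold, so that its level in bone, 1994 ± 2169 (SD, n = 3), was poorly defined. The lowest bone value was 2.31 times the highest mature value. Its log2 difference of mature from immature was 2.63 (SE 1.05), and 4.04 (SE 0.80) without mature replicate 1. Together these 2 genes made up 30.9% of the summed mean of mature replicates 2 and 3 over all 28.

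The other 2 genes followed singly had the highest osteoblast means among the remaining members. ENSXETG00000018182, the highest of all 28 in bone, had normalized counts of 3, 1 and 0 in the immature libraries, 0, 13 and 62 in mature replicates 1 to 3, and 4750, 1595 and 2459 in the osteoblast libraries. Its mature value rested on 8 reads in replicate 2 (exact 95% Poisson interval 3.45 to 15.8) and 39 in replicate 3 (27.7 to 53.3). Its mean in mature replicates 2 and 3 was 1.28% of the osteoblast mean of 2935 ± 1630 (SD, n = 3), the lowest share among the 28.

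ENSXETG00000010940 had normalized counts of 4, 9 and 3 in the immature libraries, 2, 13 and 60 in mature replicates 1 to 3, and 1534, 3281 and 627 in the osteoblast libraries. Its value of 9 in immature replicate 2 was just under the threshold, and 13 in mature replicate 2 was just above it. As shares of each library's own total these values were alike, at 1.15 and 1.14 ppm. The log2 difference of mature from immature was 0.84 (SE 0.81), and 1.43 (SE 0.82) without mature replicate 1. That of mature from osteoblast was -5.82 (SE 0.81), and -5.22 (SE 0.82) without that library.

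Over all members, the mean of mature replicates 2 and 3 ran from 12 to 259 normalized counts with a median of 37. It was 50 or more for 8 genes and under 20 for 7. The osteoblast mean ran from 61 to 2935 with a median of 565, and 6 genes were at 1000 or more. The immature mean ran from 0.333 to 7.33 with a median of 2.83, and 14 of the 28 genes were at 0 in at least 1 immature library.

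The 2 mature libraries of the rule did not rank the genes alike. Mature replicate 2 was the higher for 13 genes and mature replicate 3 for 15. The values lay within 2-fold of each other for 15 genes and at least 4-fold apart for 5. The widest gap was 150 in mature replicate 2 against 13 in mature replicate 3, and the next was 10 against 87. Over the 28 genes the Spearman rho of the 2 libraries was 0.29, a description over genes that share both libraries and a lower bound set by the rule. Counting error is large for many of these values, since 15 genes had fewer than 10 estimated reads in at least 1 of the 2 libraries. The lowest member value in either library, 10, stood for 6 reads, with an exact 95% Poisson interval of 2.20 to 13.1 reads. Only 5 genes had 30 or more reads in both.

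**Figure D2:**
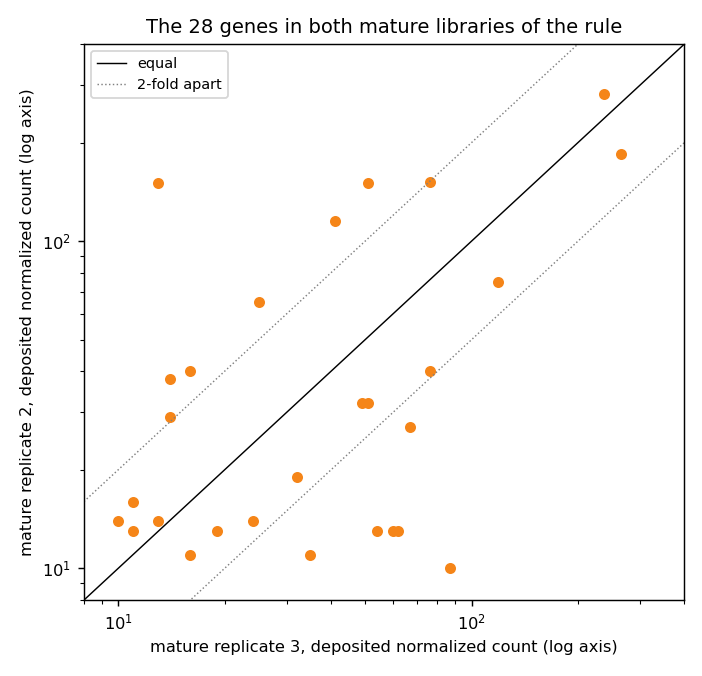
Deposited normalized count of each of the 28 genes in mature replicate 3 (horizontal) and mature replicate 2 (vertical), both on log axes. The solid line marks equal values and the dotted lines 2-fold differences; 15 of the 28 points lie within the dotted lines.

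Relative to bone, the level in mature cartilage varied widely from gene to gene. The mean of mature replicates 2 and 3 as a percentage of the osteoblast mean had a median of 9.99%, quartiles of 5.78% and 13.9%, and a range of 1.28% to 46.5%. The share was under 5% for 7 genes, 5% to under 10% for 7, 10% to under 20% for 12 and 20% or more for 2. Both genes with the highest shares were among the lowest in bone, with osteoblast means of 89.3 and 98.0. The Pearson r of the log2 mature and log2 osteoblast means over the 28 genes was 0.52 and the Spearman rho 0.44. The rule bounds both quantities, so these are descriptions only.

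**Figure D3:**
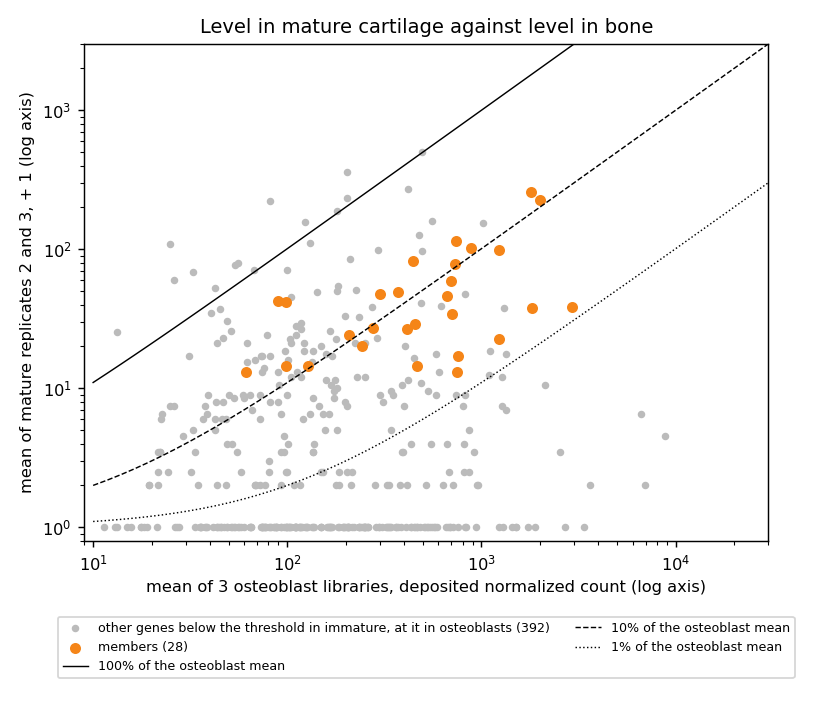
Mean deposited normalized count of the 3 osteoblast libraries (horizontal, log axis) against the mean of mature replicates 2 and 3 plus 1 (vertical, log axis) for the 420 genes below the threshold in immature cartilage and at or above it in bone. Members are the 28 large points, other genes are grey, and the lines mark 100%, 10% and 1% of the osteoblast mean. Members spread between 1.28% and 46.5%, and many grey genes of equal bone level lie at the bottom edge.

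Many genes with a high level in bone were not detected in mature replicates 2 and 3, as was so for most of the 420. Of the 20 genes with the highest osteoblast means among the 420, 4 were members, namely the 4 genes described singly above. Another 11 (55%) were below the threshold in both mature replicates 2 and 3, and 7 of these were at 0 in both. That share was 61.4% over the 420 and 62.3% over all 1788 genes below the threshold in every immature library. The differences between these shares were not tested. The highest osteoblast mean among the 11 rested largely on 1 library, with 25033, 1186 and 354 in osteoblast replicates 1 to 3. The 28 members had a median osteoblast mean of 565, against 134 for the 255 genes detected in all 3 osteoblast libraries and in no cartilage library. The order criterion favours genes high in bone, and the 37 genes it left out had a median of 117.

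Osteoblast libraries differed among themselves for these genes. The highest osteoblast value was a median of 3.13 times the lowest. It was under 3 times for 14 genes and 10 times or more for 3. The most uneven member had 33, 55 and 2177 in osteoblast replicates 1 to 3, and another had 244, 110 and 3343. The most even had 935, 900 and 821. Osteoblast replicate 3 was the highest for 14 genes, replicate 2 for 8 and replicate 1 for 6. These are deposited values, and replicate 3 also had the largest column total, 10886339 against 7885947 and 8838637 in replicates 1 and 2. As a share of each library's own total, the summed value was 1986, 2366 and 2316 ppm in osteoblast replicates 1 to 3. For the uneven genes the bone level rests largely on 1 library.

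Mature replicate 1, the mature library that the choice did not use, did not show these genes at the level of the other 2. It reached the threshold for 1 of 28 members, beside 35 of all 1788 genes below the threshold in every immature library (1.96%). It was above the highest immature value for 3 of 28, beside 13.7% of the 1788. It lay within the range of the 3 immature values for 20 genes and below it for 5. It listed 9 genes at 0, 16 at 1 to 5, 2 at 6 to 9 and 1 at 10. The members' shares, 3.57% at the threshold and 10.7% above the highest immature value, were near those of the 1788. With 1 library there is no replicate check of this.

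The 1 member at the threshold, singled out after its values were seen, was ENSXETG00000033310. Its normalized counts were 6, 7 and 9 in immature replicates 1 to 3, 10, 65 and 25 in mature replicates 1 to 3, and 445, 760 and 782 in osteoblast replicates 1 to 3. The value of 10 in mature replicate 1 was next to the immature value of 9, so the threshold ran between values that differ by 1.

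The set depended on which mature libraries were asked to show the genes. With mature replicates 1 and 2 in the rule, in place of 2 and 3, 1 gene met it, and with mature replicates 1 and 3 there were 3. With mature replicate 3 alone, that is, without mature replicate 2, there were 81 genes, and with mature replicate 2 alone 60. Without osteoblast replicate 1 there were 43, and leaving out any other library of the rule gave 30 to 38. The threshold mattered for which genes were taken: 14 of the 28 met the rule at 0.5 ppm and 11 at 2 ppm of the mean total. When 1 ppm of each library's own total was used instead, so that the same share of reads was asked of every library, 17 genes met the rule and 13 of them were among the 28.

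**Figure D4:**
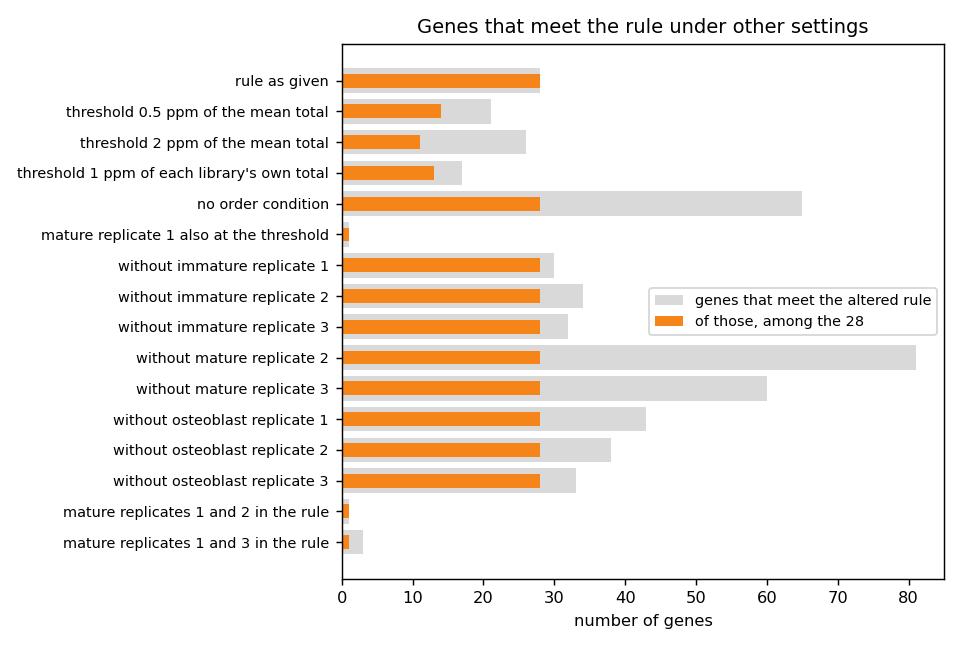
Number of genes that met the rule as given and under altered settings (grey bars), and how many of them were among the 28 (narrow orange bars). Rules that ask for mature replicate 1 hold 1 to 3 genes, against 28 with mature replicates 2 and 3.

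Some genes missed the rule by a value close to those of members. Among members, 4 had an immature value of 9, and 6 had 10 or 11 as their lower value in mature replicates 2 and 3. Just outside, 676 genes missed only the immature criterion. Of these, 10 had a highest immature value of 10 to 12, and their mean in mature replicates 2 and 3 ran from 15 to 1330. Of 327 genes that missed only the mature criterion, 9 had a lower value of 6 to 9 in mature replicates 2 and 3, and 281 had 0. The lowest osteoblast value was 1.06 to 36.3 times the highest mature value among members, with a median of 2.87 and 4 genes under 1.5. Among the 37 genes that failed on order alone the largest such ratio was 0.952.

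The fits across all 9080 tested genes (limma, Benjamini-Hochberg adjusted p under 0.05) give the background to these values. All use libraries that chose the members, so the counts are descriptions. The mature and immature groups gave 0 of 28 members higher in mature, beside 0% of all tested genes. An unadjusted p under 0.05, in either direction, was found for 5 of 28 members and 457 of 9080 tested genes. The median log2 difference of mature from immature was 1.14 among members and -0.09 over all tested genes, with a median SE of 0.80 among members. Without mature replicate 1, 5 members were called higher, beside 1.67% of tested genes, and the medians were 1.63 and -0.13.

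In the fit of mature cartilage against bone, 25 of 28 members were called lower in mature, beside 7.21% of tested genes. The median log2 difference was -3.83 among members and 0.12 over all tested genes. Without mature replicate 1 the count was 16, beside 6.29%, and the median among members was -2.83. In the fit of immature cartilage against bone, all 28 were called lower in immature, beside 7.79%, with a median log2 difference of -5.19 among members and 0.23 over all. The 2 fits against bone share the osteoblast libraries.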

How the data were processed

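The deposited table held whole-number values for 10336 genes in 9 libraries, taken here as a score: normalized counts that the authors scaled per library and rounded. Per the labels' protocols, RNA went through 1 round of amplification before library preparation, which can widen the spread of rare transcripts. Tools listed in the submitters' processing notes are edgeR, STAR 2.5.3a and Trimmomatic 0.36. Genome build, counting and scaling method are not given in the sources used here. Groups were taken from the labelled cell type, and replicates were numbered in the order of the samples.

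What 1 read was worth was estimated in each library from how often each low value occurred. Exact reads were not recovered in libraries where it was under 1, so count models were left out. The fits used log2(value + 9.52), which understates differences at low levels. Genes at 9.52 or more in at least 3 libraries were tested (9080 genes, all 28 members among them by construction). The 3 groups were fitted together in limma 3.58.1 (R 4.3.3) with a variance trend, and the script was tested on simulated data. Python 3.11.15, numpy 2.4.6, pandas 2.3.3, scipy 1.17.1 and matplotlib 3.10.9 were used.

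The members, lists and tests were chosen with earlier results of these data known. Named genes were the 2 members with the highest mean of mature replicates 2 and 3 and the 2 others with the highest osteoblast mean. A further gene was named after its values were seen. The 13 gene lists held symbols and could not be used. Alternatives covered the threshold, the order criterion, the libraries in the rule, the pseudocount, filter, scaling, variance model, weights, a block for the title number, and each library left out.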

Additional observations from a re-analysis of the deposited data

How the results depend on the processing

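The number of genes that met the rule was 28, 17 with 1 ppm of each library's own total, 65 without the order criterion, and 1 when mature replicate 1 was also required. With mature replicates 1 and 2 or 1 and 3 in the rule, chosen after seeing the data, it was 1 and 3. Leaving out 1 library of the rule gave 30 to 81. For the 28 genes kept as chosen, the 1 member at the threshold in mature replicate 1 became 6 at 0.5 ppm and 0 at 2 ppm. It became 2 at 1 ppm of that library's own total. In the count of 6 the immature libraries were not held below the lower level. The share over all genes was not counted at these levels. With the rule itself reset, mature replicate 1 reached the level for 0 of 21 genes at 0.5 ppm and 11 of 26 at 2 ppm. At 1 ppm of each library's own total it did so for 0 of 17. The 0 members called higher in mature than in immature cartilage became 6 with library weights, where 468 of 9080 genes were called in either direction. They were 0 to 5 with 1 library left out, the 5 without mature replicate 1, where 268 genes were called. Members called between mature cartilage and bone numbered 25, of 1065 genes, and 16 to 25 with 1 library left out, the 16 without mature replicate 1, of 945 genes. The other alternatives kept these counts within 1.5 times. No member changed the sign of its fitted log2 difference in any alternative, which the choice of members largely fixes. Each pair of groups shares just 1 number in the sample titles. The deviations of those libraries correlated at 0.32, -0.10 and 0.10, so a pairing was neither shown nor excluded. The last 2 values involve mature replicates 3 and 2, whose group also held the unlike mature replicate 1. With the title number as a random replicate block, 0, 26 and 28 members were called, among 0, 1204 and 1396 of 9080 genes. These are for mature against immature, mature against bone and immature against bone, in that order. Depth limits the mature values: 15 of the 28 genes had under 10 reads in mature replicate 2 or 3.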
